A study of Mus musculus with 4 samples.

Results

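The interleukin 6 (IL-6) family of cytokines and the signalling chain they share, gp130, was followed through 10 genes in adherent cells grown from mouse spleen. The 10 are the ligands Lif, Il6, Il11, Osm and Clcf1, the receptor chains Il6st (gp130 itself), Lifr, Osmr and Il6ra, and the feedback inhibitor Socs3. A probe set was taken when its gene symbol was exactly one of these names, which gave 23 of 45037 probe sets, or 10 of 19761 genes with a symbol of their own. Expression was measured on 4 Affymetrix arrays, 2 of splenic adherent cells that had piled up into compact colonies (SACCs) and 2 of adherent cells that grew as a monolayer (controls). The cells grew out of pieces of C57BL/6J spleen. SACC replicate 1 is labelled as grown with a medium for embryonic stem cells (ES medium), free of serum and given once colonies were starting to appear. SACC replicate 2 and both controls are labelled as cells of plain medium, which was RPMI with fetal bovine serum. According to the labels, control replicate 1 is the reference for SACC replicate 1 (together the ES pair), and control replicate 2 that for SACC replicate 2 (the plain pair). In the ES pair medium and cell state differ together and cannot be told apart. The labels do not say whether the arrays came from separate animals or cultures, so the spread between them may be technical.

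Cytokines of this family bind receptor complexes that contain gp130, which activates JAK kinases and the transcription factor STAT3. IL-6 and IL-11 first bind a receptor chain of their own, Il6ra or Il11ra1, whereas leukaemia inhibitory factor (Lif) binds Lifr and oncostatin M (Osm) in mice binds mainly Osmr, each beside gp130. STAT3 induces Socs3, which binds gp130 and shuts the signal off. Fibroblasts and other stromal cells are known sources of IL-6, LIF and IL-11, macrophages and other leukocytes are known sources of oncostatin M, and LIF is best known for keeping mouse embryonic stem cells undifferentiated in culture.

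The windows around the annotated gene starts are shown for the 3 ligands with the highest plain pair ratios, Lif, Il6 and Il11, and for the feedback gene Socs3, since these are the genes whose patterns are set beside each other below. Each window holds 250 bases before and 50 bases from the start, is taken from RefSeq (GRCm38.p6), and reads 5′ to 3′ along the gene's strand. Capitals mark matches, on either strand, to any of 6 letter patterns. These were STAT (TTCNNNGAA), NF-kB (GGANTTTCC), AP-1 (TGANTCA), C/EBP (TTGCNNAA), a cyclic AMP response element (TGACGTCA) and a TATA box (TATAAA).
Lif, chr11:4257318-4257617, plus strand: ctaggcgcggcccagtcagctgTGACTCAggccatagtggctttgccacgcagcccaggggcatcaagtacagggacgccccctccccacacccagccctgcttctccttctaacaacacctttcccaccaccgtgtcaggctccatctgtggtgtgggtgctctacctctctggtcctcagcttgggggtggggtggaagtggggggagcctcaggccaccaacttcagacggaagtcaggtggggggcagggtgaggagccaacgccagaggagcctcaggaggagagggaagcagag
Il6, chr5:30012864-30013163, plus strand: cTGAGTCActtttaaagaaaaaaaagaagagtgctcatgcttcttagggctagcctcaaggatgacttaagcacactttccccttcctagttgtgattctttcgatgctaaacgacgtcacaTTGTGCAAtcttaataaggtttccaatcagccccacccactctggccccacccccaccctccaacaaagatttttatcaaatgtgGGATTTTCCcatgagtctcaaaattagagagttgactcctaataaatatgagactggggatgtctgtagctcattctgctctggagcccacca
Il11, chr7:4778092-4778391, minus strand, the second of its 2 annotated starts: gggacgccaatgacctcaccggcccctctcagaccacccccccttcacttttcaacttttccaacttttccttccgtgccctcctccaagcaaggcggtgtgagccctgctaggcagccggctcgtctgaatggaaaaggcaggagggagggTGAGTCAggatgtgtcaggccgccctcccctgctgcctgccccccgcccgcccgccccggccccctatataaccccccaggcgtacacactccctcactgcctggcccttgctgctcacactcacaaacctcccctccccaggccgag
Socs3, chr11:117969317-117969616, minus strand: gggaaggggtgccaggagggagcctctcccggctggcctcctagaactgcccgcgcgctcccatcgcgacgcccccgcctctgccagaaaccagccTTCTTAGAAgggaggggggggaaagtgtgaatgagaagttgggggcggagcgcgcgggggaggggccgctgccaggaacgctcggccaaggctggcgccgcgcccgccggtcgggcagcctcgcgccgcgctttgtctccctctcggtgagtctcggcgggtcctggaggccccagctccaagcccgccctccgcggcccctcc

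The Lif, Il6 and Il11 windows shown each hold an AP-1 match, which begins 228, 249 and 98 bases before the start and is found in 7.81% of all 32851 RefSeq windows. The Il6 window also holds an NF-kB match (GGATTTTCC) 43 bases before the start, a pattern in 1.25% of all windows, and a C/EBP match 128 bases before it, a pattern in 10.8%. The Socs3 window holds a STAT match (TTCTTAGAA) 154 bases before the start, a pattern in 8.3% of all windows. Windows were at hand for 8 of the 10 genes. Among those not shown, Osmr holds an AP-1 match, and those of Il6st, Lifr, Il6ra and the other Il11 start hold none of the 6 patterns. A match is a likeness of letters and not a binding site.

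The ligands fell into 3 patterns. Il11 and Clcf1 were higher in SACCs in both pairs, Osm was lower in both, and Lif and Il6 were far higher in SACCs of the plain pair, with ratios below 0 in the ES pair. Among the receptors, gp130 and Osmr were higher in SACCs in both pairs by their brightest probe sets, and Il6ra was lower in both. Lifr was lower in the ES pair, with a plain pair ratio near 0 (-0.07) by its brightest probe set. Socs3 differed by less than 2-fold in either pair. None of the 23 probe sets passed limma's test over both pairs (Benjamini-Hochberg adjusted p under 0.05; the smallest was 0.0759), and 11 had an unadjusted p under 0.05, 8 of them higher and 3 lower in SACCs. Over all probe sets 1.3% passed the adjusted and 16.9% the unadjusted threshold. Ratios are differences in log2 value, SACC less control of its pair, so that 1 is a 2-fold difference. The values are log2 expression as deposited, on which the medians of the SACC and control arrays were 4.52 and 4.59 (ES pair) and 4.35 and 4.34 (plain pair).

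**Figure D1:**
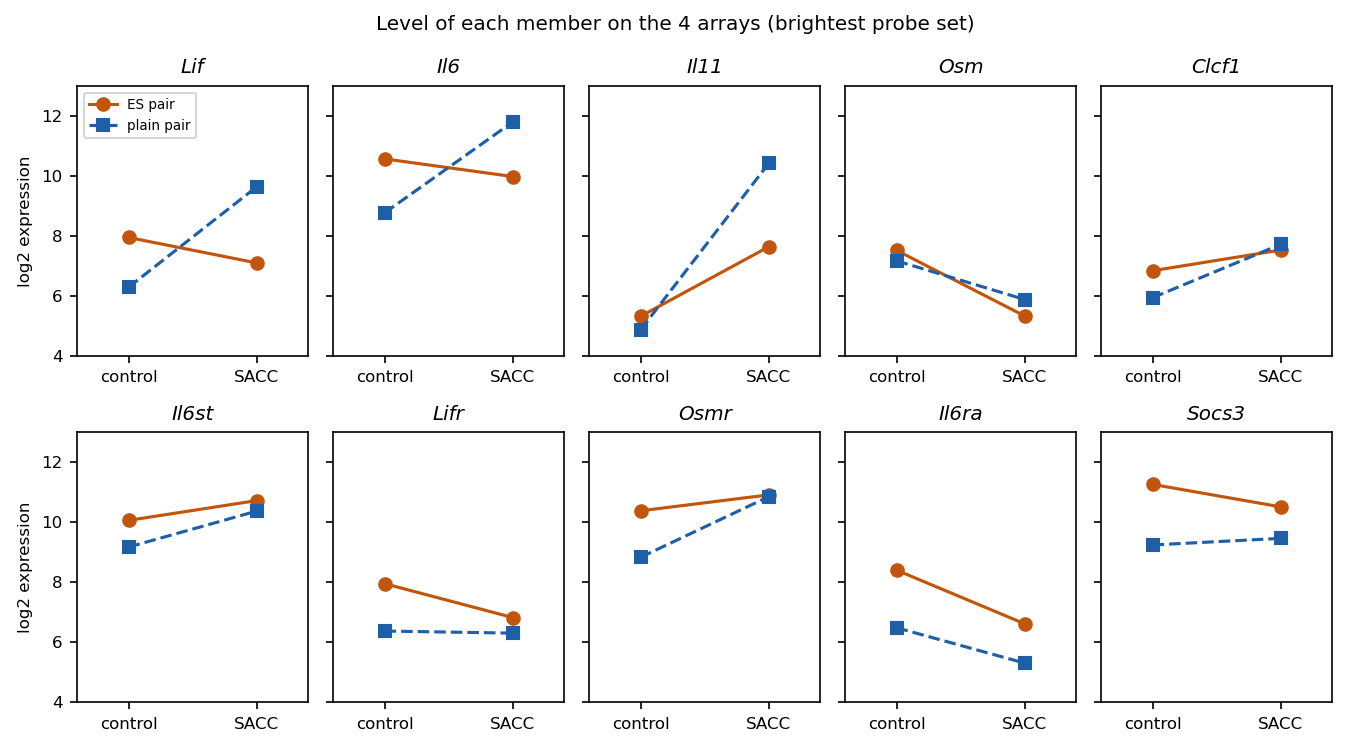
Log2 expression (vertical axis) of the brightest probe set of each of the 10 genes on the control and SACC arrays (horizontal axis), 1 point per array. Orange circles joined by a solid line are the ES pair and blue squares joined by a dashed line the plain pair. The lines of Lif and Il6 cross, those of Il11 run from 5.32 and 4.87 in controls to 7.64 and 10.42 in SACCs, and those of Osm and Il6ra both end lower in SACCs.

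Il11, a ligand made by stromal cells and linked in mice to tissue fibrosis, had the largest difference of the family. Its single probe set read 7.64 on the SACC array and 5.32 on the control of the ES pair, and 10.42 and 4.87 on those of the plain pair. Both SACC values lay above both control values. The ratios were 2.32, or 4.99-fold, and 5.55, or 46.9-fold, and only 1 other of the 45037 probe sets had a plain pair ratio as high. The mean ratio was 3.94 ± 0.83 (moderated SE, n = 2 pairs). Every SE given, here and below, is limma's moderated SE, which draws on the variance of all probe sets. It is therefore not the spread of the 2 ratios. For Il11 the ratios of the pairs differed by 3.23, and it did not pass limma's test (Benjamini-Hochberg adjusted p 0.132). The control values lay only a little above the array medians, so the folds rest on dim control signals.

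Lif read 7.1 and 7.95 on SACC and control of the ES pair and 9.64 and 6.29 on those of the plain pair. Its highest and lowest values were thus both in the plain pair, and the SACC and control ranges overlap. The ratios were -0.85 and 3.35, the latter a 10.2-fold difference, and 35 of all probe sets, Lif included, had a plain pair ratio at least as high. The second Lif probe set was below all 4 array medians and had ratios of -0.28 and 0.88. Il6 read 9.98 and 10.57 in the ES pair and 11.8 and 8.77 in the plain pair. The order of the arrays was the same as for Lif, with SACC replicate 2 highest and control replicate 2 lowest. Its ratios were -0.59 and 3.03, the latter an 8.17-fold difference.

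Limma's mean ratios were 1.25 ± 1.07 for Lif and 1.22 ± 0.92 for Il6 (SE, n = 2 pairs), with Benjamini-Hochberg adjusted p of 0.633 and 0.591. The difference between the pairs is itself the residual of the fit, so it was not tested. A plain pair ratio of 1 or more beside an ES pair ratio below 0 was found for 0.493% of all probe sets, and for 2 of the 23, those of Lif and Il6. The 2 control arrays, both of plain medium, also differed. Control replicate 1 was above control replicate 2 by 1.66 for Lif and by 1.8 for Il6, and SACC replicate 1 was below SACC replicate 2 by 2.54 and by 1.82. These differences are set across tables that may have been normalized separately, and after quantile normalization of the 4 arrays together they were 1.58 and 1.77 for the controls and -2.68 and -1.97 for the SACCs. Without the pair as a block, the mean ratio of Lif ranged from -0.02 with SACC replicate 2 left out to 2.52 with SACC replicate 1 left out.

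The genes whose pair of ratios lay nearest to that of Lif, among 12346 genes with a value above an array median once predicted models, clone names and small RNAs were left out, were Il6 (distance 0.41), the bone morphogenetic protein Bmp2 (0.47), the iron-binding lipocalin Lcn2 (0.66), Ndufa4l2 (1.01) and the immunoglobulin heavy chain gene Ighg2c (1.01). Those nearest to Il6 were Lif (0.41), Ndufa4l2 (0.62), Bmp2 (0.63), the mast cell carboxypeptidase Cpa3 (0.66) and Ighg2c (0.69). Ighg2c belongs to a family of near-identical genes, so its probe set is uncertain. The distance is that between points in the plane of ES and plain pair ratios, so likeness was measured over only 2 pairs. Lcn2 read 7.31 and 8.46 in the ES pair and 12.49 and 8.55 in the plain pair. Bmp2 had ratios of -1.22 and 3.06, with a plain pair control of 3.97 that lay below its array's median. Of the 6 mast cell and basophil markers, Cma1 also went opposite ways (-0.4 and 1.33), Kit had ratios of 0.19 and 0.95, Mcpt8 had the reverse order (2.36 and 0.21), and Fcer1a and Ms4a2, 2 defining markers, were below all 4 array medians. The part of such cells in the result was not tested.

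Osm, a ligand made mainly by leukocytes, read 5.33 and 7.52 on SACC and control of the ES pair and 5.88 and 7.17 on those of the plain pair. Both SACC values lay below both control values. The ratios were -2.19 and -1.29, or 4.56-fold and 2.45-fold lower in SACCs, with a mean of -1.74 ± 0.27 (SE, n = 2 pairs; limma, Benjamini-Hochberg adjusted p 0.0836). Clcf1, a cytokine that acts through the receptor of ciliary neurotrophic factor, was higher in SACCs in both pairs by all 3 of its probe sets. The brightest read 7.53 and 6.84 in the ES pair and 7.72 and 5.94 in the plain pair, with both SACC values above both controls. Its ratios were 0.69 and 1.78, and those of the other probe sets 0.79 and 1.61, and 0.47 and 1.36. Limma's Benjamini-Hochberg adjusted p lay between 0.138 and 0.229. By the dimmest probe set the SACC value of the ES pair (4.82) lay below the control of the plain pair (5.64).

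**Figure D2:**
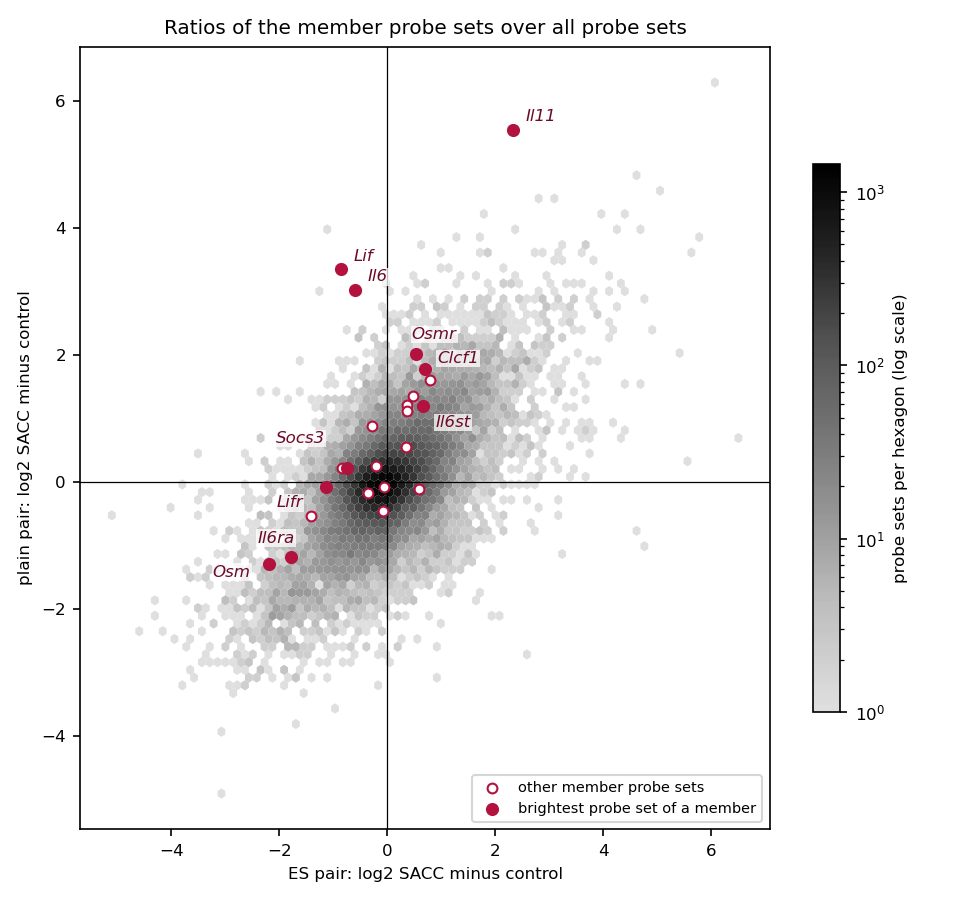
Log2 ratio of SACC over control in the ES pair (horizontal axis) against that in the plain pair (vertical axis). Grey hexagons count all 45037 probe sets on a log scale, filled red points are the brightest probe set of each of the 10 genes and open circles their other probe sets. Il11 lies far above the main cloud at 2.32 and 5.55, Lif and Il6 lie above it to the left of 0, and Osm and Il6ra lie at the lower left.

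The shared chain gp130, Il6st, was measured by 4 probe sets. The brightest read 10.73 and 10.07 on SACC and control of the ES pair and 10.38 and 9.18 on those of the plain pair. Both SACC values of this probe set lay above both controls, which was not so for any other Il6st probe set. The ratios of the brightest were 0.66 and 1.2, with a mean of 0.93 ± 0.21 (SE, n = 2 pairs; limma, Benjamini-Hochberg adjusted p 0.146). Of the other 3 probe sets, 2 were higher in both pairs (0.35 and 0.55, 0.36 and 1.21). The remaining one, the second brightest, had 0.58 and -0.1, so the probe sets disagree in the plain pair.

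Osmr, which pairs with gp130 to bind oncostatin M, read 10.92 and 10.39 in the ES pair and 10.86 and 8.84 in the plain pair by its brightest probe set. By this probe set the SACC values were close to each other and lay above both controls, which were 1.55 apart across the tables. The ratios were 0.53 and 2.02, the latter a 4.06-fold difference (mean 1.27 ± 0.41, SE, n = 2 pairs; limma, Benjamini-Hochberg adjusted p 0.251). A second probe set had 0.37 and 1.12, but its SACC value of the ES pair (4.22) lay below its control of the plain pair (6.64). The third was below all 4 array medians.

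Il6ra, the chain that binds IL-6 and is found mainly on leukocytes and hepatocytes, read 6.62 and 8.41 in the ES pair and 5.31 and 6.49 in the plain pair by its brighter probe set. SACCs were lower within each pair, although the SACC value of the ES pair lay just above the control of the plain pair. The ratios were -1.79 and -1.18, or 3.46-fold and 2.27-fold lower, with a mean of -1.48 ± 0.22 (SE, n = 2 pairs). Its Benjamini-Hochberg adjusted p in limma, 0.0759, was the smallest of the 23. With no pair block the mean was -0.52 without control replicate 1 and -2.44 without control replicate 2. The dimmer probe set had ratios of -0.36 and -0.17. Lifr, the receptor chain for LIF, read 6.83 and 7.96 in the ES pair and 6.31 and 6.38 in the plain pair by its brightest probe set. Only the ES pair control stood apart from the other arrays, and the ratios were -1.13 and -0.07 (limma, Benjamini-Hochberg adjusted p 0.443). The other 2 probe sets were also lower in both pairs (-1.41 and -0.53, -0.08 and -0.46) and mostly below the array medians.

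Socs3, the inhibitor induced through STAT3, read 10.52 and 11.27 in the ES pair and 9.47 and 9.25 in the plain pair by its brightest probe set. By this probe set both arrays of the ES pair were above both of the plain pair. The ratios were -0.75 and 0.22, and those of its other probe sets -0.84 and 0.22, and -0.21 and 0.26. All 3 had the same signs as Lif and Il6 in each pair, as had 18.3% of all probe sets, with differences of at most 1.79-fold. The 3 probe sets measure 1 gene on the same arrays. The 2 brighter probe sets are of the kind marked x, some of whose probes match other transcripts too.

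Counted at 2-fold, 1 of the 23 probe sets was higher and 4 were lower in SACCs of the ES pair, where 4.97% and 3.58% of all probe sets were. In the plain pair 10 were higher and 2 lower, where 4.69% and 3.96% were. The median ratio of the 23 was -0.08 (ES pair) and 0.55 (plain pair), against -0.04 and -0.02 over all probe sets. By its brightest probe set, each of the 10 genes had a higher ratio in the plain than in the ES pair, as had 48.8% of all genes, and so did 20 of the 23 probe sets. Probe sets of a gene share their transcript and the ratios of a pair share its 2 arrays, so these counts describe the arrays and are no test.

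Cell type markers also differed between SACCs and controls. All 12 macrophage markers were lower in SACCs of either pair (medians -1.86 and -1.7), and 5 passed the test, and the lysozyme gene Lyz2 still read 13.27 and 13.36 on the SACC arrays. All 10 fibroblast markers were higher (medians 1.4 and 1.7), and 3 passed. Marker levels on the 2 SACC arrays spanned 6.62 to 13.36 for macrophage and 6.78 to 14.16 for fibroblast genes, all above the array medians. Neutrophil markers had medians of 1.27 and -0.07, with S100a9 at 4.82 and -1.04, and 1 of 6, Camp, passed. Medians of endothelial markers were 0.68 and 0.14, of mast cell and basophil markers 0.04 and 0.97, of T cell markers -0.2 and -0.1, and of B cell markers -0.2 and -0.02, and none of these passed. Among T and B cell markers the T cell receptor gene Trac had ratios of 1.78 and 1.47, and the other 10 differed by less than 2-fold in both pairs. In cultures of mixed cells, fewer cells of a type and less RNA per cell cannot be told apart. The part of these shifts in the ratios of Osm, Il6ra, Il11 or Osmr was not tested.

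The rest of the family was followed next. Of the other gp130 family cytokines, 4 of 7 were measured, 1 fell and none rose. Ebi3, the subunit that IL-27 shares with IL-35, read 6.54 and 8.88 in the ES pair and 5.76 and 7.96 in the plain pair, and fell by 2.27 ± 0.16 (SE, n = 2 pairs; limma, Benjamini-Hochberg adjusted p 0.0476). Like the other passing calls, it was lost when the arrays were centred on a common median (limma, Benjamini-Hochberg adjusted p 0.0636) and without the pair as a block (0.237). Cardiotrophin 1, Ctf1, had ratios of 0.9 and 1.05, and Il31 was below all 4 array medians. Of the other receptors 3 of 4 were measured and none passed. Cntfr, the receptor chain that Clcf1 binds, had 0.67 and 0.35, Il27ra -0.11 and 0.07, and Il31ra was below all 4 array medians too. Il11ra1 shares its probe sets with other genes and is not reported.

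Downstream of gp130 the levels differed less. Of 11 kinases, STATs and adaptors none passed limma's test, and their medians were -0.04 and -0.15. Stat3 had ratios of 0.29 and 0.36, Jak1 0.24 and -0.17 and Jak2 -0.04 and 0.68. Of the 3 Jak1 probe sets, 2 had a mean ratio of the opposite sign to that of the brightest, 0.03. The adaptor Grb2 had -0.93 and -0.94. Among 4 genes of receptor shedding, by which Il6ra is released in soluble form, none passed. Adam17, the main sheddase, had -0.59 and -0.66, and Rhbdf1, which helps it mature, 0.62 and 0.6.

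Of 16 genes listed as inhibitors of JAK-STAT signalling other than Socs3, 1 fell and none rose. The one that fell, Dusp1, is known mainly as a phosphatase of MAP kinases, which fibroblasts and macrophages induce rapidly. It read 9.93 and 11.68 in the ES pair and 9.28 and 11.26 in the plain pair, and fell by 1.86 ± 0.17 (SE, n = 2 pairs; limma, Benjamini-Hochberg adjusted p 0.0476). The leukocyte phosphatase Ptpn6 had ratios of -2.2 and -1.52 and the adaptor Sh2b3 -1.34 and -1.07, without passing. The SOCS genes showed smaller values. Socs2 had 0.11 and 0.86, Socs5 -0.22 and 0.78, Cish -0.21 and 0.55, and Socs6 -0.41 and -0.96. Of the 6 Socs2 probe sets, 3 had a mean ratio of the opposite sign to that of the brightest. The list medians were -0.24 and 0.14.

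Of 28 genes that STAT3 is known to induce in some cell type, none passed limma's test. At 2-fold, 3 were higher and 3 lower in the ES pair, and 9 were higher and 2 lower in the plain pair. Of all 19761 genes by their brightest probe set, 1286 were higher and 807 lower in the ES pair. In the plain pair 1187 of them were higher and 1025 lower. The medians of the 28 genes were 0 (ES pair) and 0.29 (plain pair), beside -0.01 and -0.02 for all genes by their brightest probe set. The acute phase gene Hp (haptoglobin) read 11.86 and 8.06 in the ES pair and 8.87 and 7 in the plain pair, with ratios of 3.8 and 1.87. The metalloreductase Steap4 had 2.44 and 1.4, the protease inhibitor Timp1 1.3 and 1.61, and metallothionein Mt2 0.99 and 1.36. Other genes of the list differed between the pairs as Lif and Il6 did. Lcn2 had ratios of -1.15 and 3.94 and the growth factor Vegfa -0.1 and 2.15, whereas Il1rn, the interleukin 1 receptor antagonist, had 0.23 and -2.15. Lbp, which binds bacterial lipopolysaccharide, had 0.41 and 1.98.

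Of 22 genes that induce Il6 and Lif or respond with them to NF-kB, 1 rose and none fell. Il1r1, the signalling receptor of interleukin 1, read 10.4 and 8.54 in the ES pair and 10.23 and 8.61 in the plain pair, and rose by 1.74 ± 0.17 (SE, n = 2 pairs; limma, Benjamini-Hochberg adjusted p 0.0487), although 1 of its 2 probe sets had a mean ratio of the opposite sign. By the mean of both probe sets its ratio was 0.75 and did not pass (limma, Benjamini-Hochberg adjusted p 0.0744). The colony-stimulating factor Csf3 had ratios of -0.18 and 1.92, the prostaglandin synthase Ptgs2 -0.11 and 1.74 and the chemokine Cxcl1 0.56 and 2.76, so all 3 were more than 3-fold higher in SACCs of the plain pair. Il1b, an inducer, read 4.48 and 6.68 in the ES pair and 5.17 and 4.93 in the plain pair. Its ES pair control was the highest of the 4 arrays, whereas SACC replicate 2 was highest for Lif and Il6. The ES pair SACC value of Il1b lay below its array's median. A link between Il1b and the levels of Lif and Il6 was not tested. Tnf had ratios of -0.61 and -1.19, Tlr4 -1.12 and -0.99, and Zfp36, whose protein promotes decay of cytokine messenger RNAs, -2.53 and -1.67 (limma, Benjamini-Hochberg adjusted p 0.0612). Of the 4 Tlr4 probe sets, 1 had a mean ratio of the opposite sign to that of the brightest. The list medians were -0.31 and 0.26, and 8 of the 22 (36.4%) were lower in the ES pair and higher in the plain pair, as were 14.9% of all genes.

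**Figure D3:**
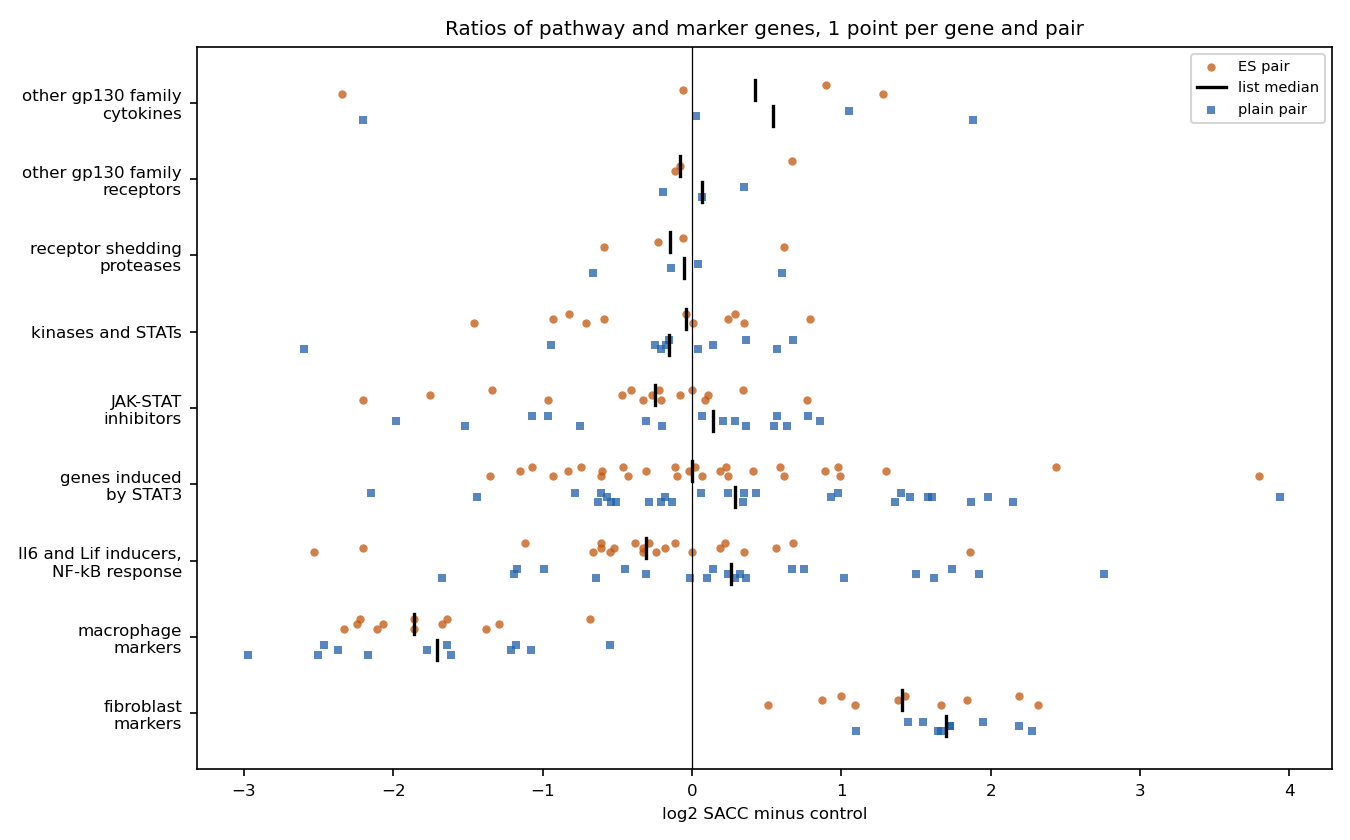
Log2 ratio of SACC over control (horizontal axis) for the genes of each list (rows), 1 point per gene and pair, orange circles for the ES pair and blue squares for the plain pair, with black bars at the list medians. Macrophage markers lie below 0 and fibroblast markers above 0 in both pairs, while the pathway lists scatter on both sides of 0.

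Probe sets of a single gene did not always agree in level between the tables. The mean level of the ES pair less that of the plain pair was -3.16 for the second Osmr probe set but 0.81 for the brightest Osmr probe set. For Il6st it was -2.58 for the third brightest and 0.62 for the brightest, and for Clcf1 -1.74 for the dimmest and 0.36 for the brightest. Over all probe sets the central 95% ran from -1.19 to 1.23, and 0.837% were at -2 or below. Both arrays of a pair shared these shifts, and the ratios within a pair had the same sign across the Osmr, Il6st and Clcf1 probe sets just named. The difference between tables was 1.62 for the brighter Il6ra probe set and -0.7 for the dimmer, and ran from 0.29 to 1.54 over those of Socs3. Levels of Osmr, Il6st, Clcf1, Il6ra and Socs3 across the tables therefore depend on the probe set, and the cause was not tested.

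**Figure D4:**
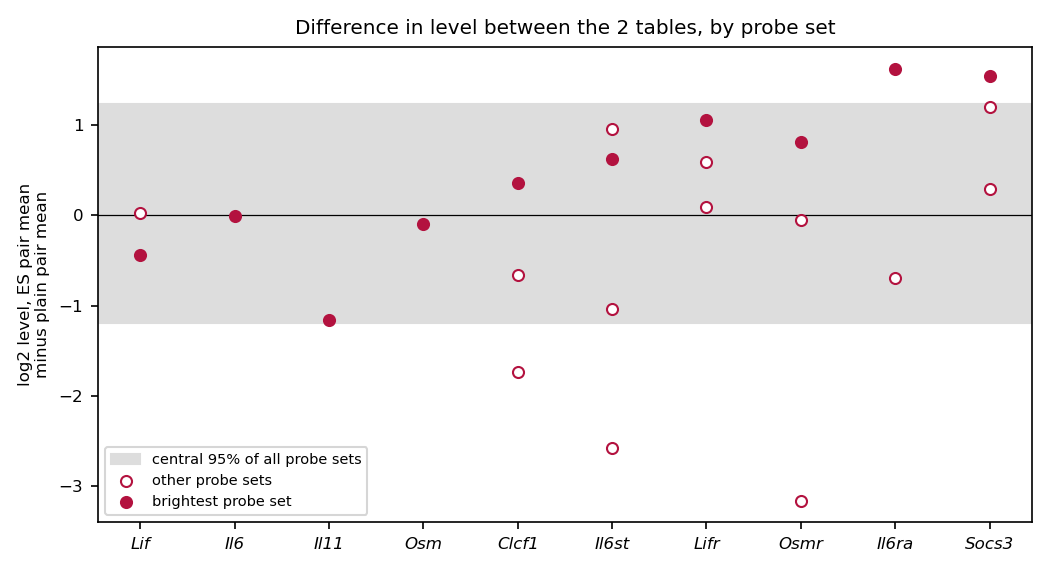
Mean log2 level of the ES pair less the mean of the plain pair (vertical axis) for each probe set of the 10 genes (horizontal axis), filled for the brightest probe set and open for the others. The grey band is the central 95% of all probe sets, from -1.19 to 1.23. Osmr, Il6st and Clcf1 each have a probe set below the band, at -3.16, -2.58 and -1.74, and a brightest probe set above 0.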

How the data were processed

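Total RNA was labelled as biotinylated cRNA and hybridised to Affymetrix arrays, per the labels' protocols. The authors deposited log2 expression values per probe set in 2 tables, 1 per pair of arrays, made with Transcriptome Analysis Console per the submitters' processing notes. How probes were summarised and normalized, and on which build, is not given in the sources used here. Sorted values differed more across than within the tables, so ratios were taken within a table. Levels and array orders set across the tables are only described. The fits without the pair as a block also compare arrays across the tables. Precision is limited by the number of arrays, 2 per group.

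The deposited values were used unchanged, with no filter. SACC minus control was fitted with limma 3.58.1 in R 4.3.3 over 45037 probe sets, with the pair as a block, because the labels name each control as the reference of its SACC array. This left 1 residual degree of freedom (prior 2.97). The SEs given are moderated by limma toward a variance shared by all probe sets. P-values were adjusted by Benjamini-Hochberg over all probe sets at 0.05, and the fit was tested on simulated data. A gene was read from its brightest probe set with a single symbol. No columns without a sample were used (0).

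The 10 genes, the 7 pathway lists and the 7 marker lists were chosen with earlier results of these data known. Of 144 list entries, 138 were measured. Named pathway genes were those past the test, up to 6 per list by mean ratio and up to 4 by the difference between pairs, and the 5 genes nearest to Lif and Il6. Stat3, Jak1, Il31, Il31ra and the single marker genes named fell outside this rule and were chosen after their values were seen. Some genes that the rule names are not reported here. Alternatives were no block, median centring, quantile normalization, a filter on dim probe sets, trended and robust variance, and each array left out. Figures were drawn with matplotlib 3.10.9.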

Additional observations from a re-analysis of the deposited data

Results flagged for a closer look

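For 7 of the 23 probe sets (30.4%) the 2 pairs had ratios of opposite sign, as had 34.6% of all probe sets, and the difference between the pairs was not tested, since it is the residual of the fit. The ratio in the plain pair minus that in the ES pair was 4.2 and 1.16 for the Lif probe sets and 3.62 for Il6. It was 0.47, 0.97 and 1.06 for the Socs3 probe sets. For the second brightest Il6st probe set it was -0.68, the reverse order.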

How the results depend on the processing

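Of the 587 calls over all probe sets, 403 were tied at the smallest adjusted p, 0.0476 (limma, Benjamini-Hochberg), close to the threshold. The calls depended on the scaling as well as on the pair block. Against 587 calls with it, there were 0 with no replicate block (smallest adjusted p 0.16, with 3497 at an unadjusted p under 0.05) and 0 to 0 with an array left out, also without the pairing. Median centring gave 0 (smallest adjusted p 0.0636), quantile normalization 2045, the filter on dim probe sets 1326 of 22518, a trended variance 898, a robust variance 2623, and an adjusted p of 0.10 gave 2188. Of the 23 probe sets of the family, 0 passed with or without the block, 2 under quantile normalization, 2 with the robust variance and 2 at 0.10 (Osm and Il6ra, lower), and 1 with the filter (Il6ra). Of the 88 pathway genes, 3 passed with the block, 0 without it, 0 after median centring, 15 under quantile normalization, 7 with the filter, 6 with the trend, 17 with the robust variance, 15 at 0.10, 9 by the mean of all probe sets (Il1r1 not among them) and 0 to 0 with an array left out. The adjusted p of Il11 ran from 0.0581 to 0.664 over its alternatives. With an array left out, and no block, the mean ratio turned sign for several genes. It ran from -0.02 to 2.52 for Lif and, by probe set, from -0.17 to 2.0 for the dimmest of Clcf1, from -0.12 to 1.02, -0.41 to 0.89 and -0.71 to 2.28 for Il6st, from -1.39 to 0.19 for Lifr, from -1.02 to 2.52 for the second of Osmr, from -0.66 to 0.13 for the dimmer of Il6ra, and from -0.23 to 0.28, -1.27 to 0.75 and -1.18 to 0.56 for Socs3. Without a sign change it ran from 0.31 to 2.13 for Il6, 2.54 to 5.32 for Il11, 0.79 to 1.68, 0.49 to 1.38 and 0.5 to 2.05 for the brightest of Clcf1, Il6st and Osmr, and -2.44 to -0.52 for the brighter of Il6ra. Among pathway genes, whose alternatives were added after seeing the data, the ranges were -0.24 to 0.2 for Il27ra, -0.15 to 0.13 for Rhbdf2, -0.29 to 0.85 for Socs5, -0.09 to 0.43 for Cish, -0.25 to 1.22 for Socs2, -1.2 to 3.98 for Lcn2, -2.6 to 0.68 for Il1rn, -0.01 to 2.06 for Vegfa and -0.21 to 1.96 for Csf3. Median centring also turned Il27ra to 0.01 and Rhbdf2 to 0.02. Of the other sign changes with an array left out, Il6st (second brightest) had -0.06, Osmr (second) -0.65, Il6ra (dimmer) 0.04, Socs3 0.26 and 0.03, Il27ra 0.11 and Rhbdf2 0.08. The cause of these changes was not tested.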
